A study of Mus musculus with 12 samples.

Results

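Monocytes of the mouse fall into a Ly6Chigh subset and a Ly6Clow subset. The comparison described here sets Ly6Chigh monocytes of the condition labelled q2 against Ly6Clow monocytes of the condition labelled q1. It takes in 10617 genes of the 23989 that the deposited tables of the 2 subsets share by gene and locus. A gene entered it when the authors' tables gave it the test status OK for both subsets, which left 11401, and when it reached at least 1 FPKM in Ly6Chigh q2 or in Ly6Clow q1. Just inside that limit stood Utp14b, Gm10012 and Calml4, whose larger values were 1.0003, 1.0007 and 1.0014 FPKM. Just outside it stood Mterf1b, Pcp4l1 and Usp54 with 0.999, 0.998 and 0.998 FPKM.

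The study sequenced total RNA of monocytes from C57Bl/6 mice in 4 groups of 3 samples, 12 samples in all. Ly6Chigh and Ly6Clow monocytes each came from mice given placebo, whose sample titles read Naive and carry no time, and from mice given muramyl dipeptide (MDP), whose titles carry 16 h. MDP is a fragment of bacterial peptidoglycan and the ligand of the intracellular receptor NOD2. No mutation is given for these 12 samples. Mice without NR4A1 or NOD2, which the design text also names, were not analysed here. How the monocytes were isolated, and the age and sex of the mice, are not given in the sources used here.

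Each subset has a table of its own in which the conditions are called q1 and q2. The sources used here do not say which of these stands for placebo and which for MDP, or whether q1 means the same treatment in each table. Directions are therefore given by table and condition, and never as an effect of MDP. The authors deposited 1 FPKM value, a level adjusted for the length of the transcript and the size of the library, for each gene and condition, so there is no spread between samples, and no test can be made between the tables. The fold thresholds below describe size and carry no p-value.

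Ly6Chigh monocytes, also called classical or inflammatory, leave the bone marrow through the chemokine receptor CCR2 and enter inflamed tissue, where they can become macrophages or dendritic cells. Ly6Clow monocytes patrol the inner wall of blood vessels, depend on the nuclear receptor NR4A1 and largely descend from Ly6Chigh cells. The title of the series speaks of Ly6Chigh cells converting to Ly6Clow cells when NOD2 is triggered. The comparison addresses how far the subsets stood apart when Ly6Chigh was taken from q2 and Ly6Clow from q1 of their own tables.

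The genes that mark the subsets stood far apart. The values are FPKM, in the order Ly6Chigh q1, Ly6Chigh q2, Ly6Clow q1 and Ly6Clow q2, and differences are log2 of (FPKM + 1), Ly6Chigh q2 minus Ly6Clow q1, unless another pair is named. Ly6c2, which encodes the Ly6C antigen that names the subsets, stood at 1312, 1054, 5.78 and 3.98 FPKM. Its difference was 7.28, which is 156-fold on the FPKM + 1 scale. Fcgr4, the Fc receptor for IgG typical of Ly6Clow monocytes, stood at 35.8, 21.1, 630 and 274 FPKM, a difference of -4.84. Cd36, a scavenger receptor for oxidised lipid, stood at 5.40, 2.98, 190 and 195 FPKM, a difference of -5.59. Spn, the sialoglycoprotein CD43, stood at 82.8, 140, 581 and 473 FPKM, a difference of -2.05. For these 4 marker genes both values of the subset that the gene marks lay above both values of the other subset. In mm10, the build in the submitters' processing notes, Ly6c2 lies at chr15:75108161-75111949 and Fcgr4 at chr1:171018926-171029761.

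The promoters of Ly6c2 and Fcgr4 are shown because these genes mark the ends of the comparison. They run from 250 bases before to 50 bases after the annotated start in RefSeq's GRCm38.p6, at chr15:75111922-75112221, minus strand, and chr1:171018676-171018975, plus strand. Capitals mark every match, on either strand, to 5 motifs: the PU.1 site GAGGAAGT, the interferon-stimulated response element (GAAA, any 2 bases, GAAA), the STAT site TTCNNNGAA, the C/EBP site TTGCNNAA and the NR4A monomer site AAAGGTCA.
Ly6c2: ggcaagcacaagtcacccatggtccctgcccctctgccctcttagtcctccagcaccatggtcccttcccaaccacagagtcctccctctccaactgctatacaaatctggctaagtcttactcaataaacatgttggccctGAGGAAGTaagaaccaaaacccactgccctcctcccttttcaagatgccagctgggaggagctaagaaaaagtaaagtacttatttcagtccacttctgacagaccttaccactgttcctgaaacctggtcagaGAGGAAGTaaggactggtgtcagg
Fcgr4: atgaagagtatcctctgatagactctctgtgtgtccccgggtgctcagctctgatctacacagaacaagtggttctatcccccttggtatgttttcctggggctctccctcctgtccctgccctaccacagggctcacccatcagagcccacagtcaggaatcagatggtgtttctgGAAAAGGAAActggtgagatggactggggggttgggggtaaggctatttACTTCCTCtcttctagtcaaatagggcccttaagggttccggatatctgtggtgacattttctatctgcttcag
Ly6c2 held 2 PU.1 matches. Fcgr4 held 1 PU.1 match and 1 interferon-stimulated response element, each on a different stretch. Of all 27025 RefSeq promoters of that length, 3.28% held the PU.1 letters, 3.49% the interferon-stimulated response element, 8.47% the STAT site, 10.8% the C/EBP site and 1.46% the NR4A site. These are matches of letters and not measured binding.

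**Figure D1:**
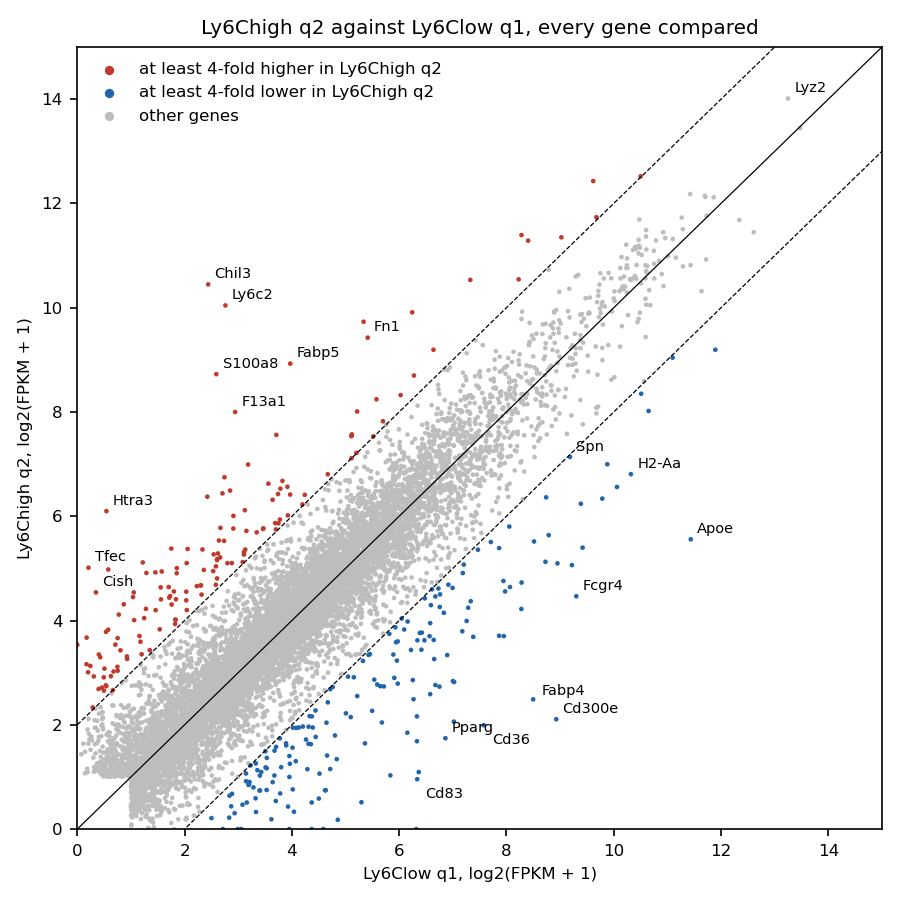
Each point is 1 of the 10617 genes, with its level in Ly6Clow q1 on the x axis and in Ly6Chigh q2 on the y axis, both as log2(FPKM + 1). Red points (148) lie at least 4-fold above the line of equal level, blue points (185) at least 4-fold below it, and the dashed lines mark 4-fold; Ly6c2 and Chil3 stand farthest above it and Cd300e farthest below.

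Over all genes the levels in the compared conditions were mostly close. Of the 10617 genes, 86.6% lay within 2-fold, and the median difference was 0.00. At least 2-fold higher in Ly6Chigh q2 were 720 genes (6.78%), and 702 (6.61%) were at least 2-fold lower. A 4-fold difference was reached by 148 genes with the higher level in Ly6Chigh q2 (1.39%) and by 185 genes with the lower level there (1.74%). Genes with a mean of at least 100 FPKM were 4-fold apart in 6.28% of 923 cases, those from 10 to 100 FPKM in 3.39% of 5217, and those under 10 FPKM in 2.19% of 4477. The pseudocount of 1 lowers the fold of weakly expressed genes. The tables may have been scaled separately: the FPKM values sum to 640485 and 624169 in Ly6Chigh q1 and q2 and to 567691 and 573410 in Ly6Clow q1 and q2. Setting every sum to the same total moves the median difference to -0.12, with 152 genes 4-fold higher and 243 lower, so that 38.5% of the 4-fold genes are higher in place of 44.4%. In bulk samples, fewer cells of a type and less RNA per cell cannot be told apart.

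Among the 15 genes with the largest positive differences were Chil3, F13a1 and Fn1, which belong to the list of classical monocyte genes described below. Chil3, which encodes the chitinase-like protein Ym1, stood at 963, 1395, 4.43 and 3.18 FPKM and led with a difference of 8.01. F13a1, the A subunit of coagulation factor XIII, stood at 456, 255, 6.69 and 3.36 FPKM, a difference of 5.06. S100a8, a subunit of the calcium-binding protein calprotectin, stood at 62.9, 422, 5.03 and 9.59 FPKM, a difference of 6.13. S100a8 was higher in q2 than in q1 of both tables, and both of its Ly6Chigh values lay above both Ly6Clow values. Fn1, the matrix protein fibronectin, stood at 650, 687, 41.6 and 45.9 FPKM, a difference of 4.01. Tfec, a transcription factor of the MITF family, stood at 5.96, 31.3, 0.155 and 0.334 FPKM, a difference of 4.80. S100a8 and Tfec are not on the classical list.

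For 8 genes of the 15 the difference fell within 2-fold or changed sign in the pairing of the remaining conditions, Ly6Chigh q1 minus Ly6Clow q2. Htra3, a secreted serine protease, stood at 0.197, 67.5, 0.457 and 38.6 FPKM, and its difference was 5.56. Fabp5, a carrier of fatty acids, stood at 31.6, 486, 14.7 and 742 FPKM, a difference of 4.96. Both were high in q2 and low in q1 of each table, so that the other pairing gave -5.05 for Htra3 and -4.51 for Fabp5. Cish, a STAT5-induced inhibitor of cytokine signalling, stood at 0.384, 22.3, 0.272 and 31.5 FPKM, with differences of 4.19 and -4.55 in these pairings. The pyrimidine salvage enzymes Upp1 and Uck2 had differences of 4.40 and 3.89 in the comparison and of -2.26 and -1.40 in the other pairing. The actin-capping gene Capg stood at 413, 849, 39.4 and 367 FPKM, with a difference of 4.39 here and of 0.17 in the other pairing. Anxa3, an annexin, had a difference of 4.004 and of 0.77 in the other pairing. Gm14005 had 3.95 and -0.90.

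The promoter of Cish is shown because Cish is among the genes that were high in q2 of both subsets and because its promoter is a textbook STAT5 target. It lies at chr9:107296409-107296708, plus strand, in GRCm38.p6, with matches to the same motifs in capitals.
Cish: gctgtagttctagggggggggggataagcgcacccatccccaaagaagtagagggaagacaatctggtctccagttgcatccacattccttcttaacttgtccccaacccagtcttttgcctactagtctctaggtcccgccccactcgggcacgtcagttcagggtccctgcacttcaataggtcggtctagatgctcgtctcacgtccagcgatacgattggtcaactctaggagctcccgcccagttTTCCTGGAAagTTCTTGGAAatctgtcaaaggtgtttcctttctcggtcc
It held 2 STAT matches, next to each other at the annotated start, and none of the other 4 motifs. Of the 15 promoters found among the 24 genes grouped with Cish further on, 3 (20%) held a STAT match. Among the 8069 promoters found for all genes compared, 7.06% held a STAT match. Cish belongs to the 24 genes and was shown as a known STAT5 target, so the count of 3 is partly fixed in advance. Whether the group holds more STAT matches than other genes was not tested.

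At the opposite end stood genes of Ly6Clow monocytes. Cd300e, an activating receptor of the immunoglobulin superfamily on myeloid cells, stood at 1.79, 3.31, 486 and 392 FPKM, and its difference of -6.82 was the most negative. Fabp4, a fatty acid carrier of fat cells and macrophages, stood at 4.64, 4.61, 360 and 394 FPKM, a difference of -6.01. Pparg, the nuclear receptor that drives lipid uptake genes, stood at 9.27, 2.35, 115 and 49.3 FPKM, a difference of -5.12. Cd36, Fabp4 and Pparg thus lay at least 4-fold lower in Ly6Chigh q2, and both Ly6Clow values exceeded both Ly6Chigh values for each of them. Lilra5, a leukocyte immunoglobulin-like receptor, and Slamf9, a receptor of the SLAM family, had differences of -5.27 and -4.65. Tmem26 had -4.68.

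Several of the lowest genes are known from dendritic cells or carry a further limit. Cd83, a surface protein of mature dendritic cells, stood at 3.79, 0.942, 79.8 and 16.9 FPKM, a difference of -5.38. Cd209a, the mouse C-type lectin related to DC-SIGN, stood at 62.1, 3.17, 129 and 194 FPKM, a difference of -4.96. Mgl2, a galactose-binding lectin, had -4.78. Cd209a spanned a wide range within the Ly6Chigh table, where the authors' deposited table gave q = 0.000859 for q2 against q1. Apoe, the lipid transport protein apolipoprotein E, stood at 1013, 46.1, 2767 and 120 FPKM. It was low in q2 of both tables, so its difference was -5.88 in the comparison and 3.07 in the other pairing. The row H2-Q6,H2-Q8 (-4.81) shares its locus with H2-Q8 and belongs to a family of near-identical class I genes, so how its reads were divided is uncertain. Mir7115 and Snora78 are listed at 0 in Ly6Chigh q2, at 128 and 10.8 FPKM in Ly6Chigh q1, and no fold against 0 is given for them here. In the authors' deposited table their q in Ly6Chigh was 0.481 and 0.303.

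The status rule also left out genes that were far apart. Without it a further 16 genes reached 4-fold with the higher level in Ly6Chigh q2 and 45 with the lower. Of these, 8 of the 16 and 31 of the 45 are rows of miRNAs or small nucleolar RNAs by name, and 7 and 30 of those are listed at 0 in Ly6Chigh q2 or Ly6Clow q1. Among the other genes, Lcn2, the iron-scavenging protein lipocalin 2, stood at 22.6, 99.0, 0.0663 and 0.236 FPKM, and Vcan, the proteoglycan versican, at 25.3, 95.4, 0.0896 and 0.209 FPKM. Mmp8, neutrophil collagenase, stood at 59.0, 41.9, 0.240 and 0.0190 FPKM. Retnla, an alternative activation gene of macrophages, stood at 0.0737, 0.120, 302 and 147 FPKM. These 4 protein-coding genes were picked for display after their values were seen; each was near 0 in 1 subset, where the authors' software did not test it.

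The list of 21 genes of classical monocytes had 18 members in the comparison. Of these, 14 were at least 2-fold higher in Ly6Chigh q2 and 0 at least 2-fold lower, with 8 at least 4-fold higher and a median difference of 1.75. Over all genes these shares were 6.78%, 6.61% and 1.39%. The list holds genes of classical monocytes and was chosen with earlier results of these data known, so its lean to Ly6Chigh was largely fixed in advance. Its median was larger between Ly6Chigh q1 and Ly6Clow q1, at 2.54, and in Ly6Chigh q1 minus Ly6Clow q2, at 2.90. Among the 8 were Chil3, Ly6c2, F13a1, Fn1, Cd93 (a C-type lectin domain receptor), Sgms2 (a sphingomyelin synthase) and Thbs1 (thrombospondin). Thbs1 stood at 85.5, 78.7, 11.5 and 11.2 FPKM, a difference of 2.68, and Cd93 at 25.4, 23.9, 1.94 and 1.37 FPKM, a difference of 3.08. Plac8 and Ifitm3, the members with the highest level, differed less, by 1.22 and 0.22. Ccr2, the receptor that takes Ly6Chigh cells out of the marrow, stood at 581, 278, 80.2 and 72.6 FPKM, a difference of 1.78. Ccr2 is named here for its role and after its values were seen.

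The list of 25 patrolling genes had 24 members in the comparison. At least 2-fold lower in Ly6Chigh q2 were 23 of them, 18 at least 4-fold (6.61% and 1.74% of all genes). Between Ly6Chigh q1 and Ly6Clow q1, 21 of the 24 were at least 2-fold lower. The list holds genes of Ly6Clow monocytes and was chosen with earlier results of these data known, so these counts were largely fixed in advance. The median of the list was -3.26, against -2.85 between Ly6Chigh q1 and Ly6Clow q1 and -2.50 in Ly6Chigh q1 minus Ly6Clow q2. Nr4a1, the nuclear receptor on which Ly6Clow monocytes depend, stood at 501, 385, 1514 and 819 FPKM, a difference of -1.97. Its lowest level of the 4 conditions was 385 FPKM, and the authors' deposited table gave q = 0.244 for q2 against q1 in Ly6Chigh and q = 0.000418 in Ly6Clow. Cx3cr1, the fractalkine receptor that helps patrolling cells survive, stood at 175, 22.6, 250 and 134 FPKM. Its difference of -3.42 became 0.39 in the other pairing, and the authors' deposited table gave q = 0.000859 in Ly6Chigh and 0.000418 in Ly6Clow. Itgax, the integrin CD11c, stood at 5.66, 18.0, 155 and 258 FPKM, and Ace, angiotensin-converting enzyme, at 149, 127, 941 and 847 FPKM. S1pr5, a sphingosine phosphate receptor for exit from the marrow, stood at 17.5, 12.1, 232 and 159 FPKM. All 3 kept both Ly6Clow values above both Ly6Chigh values. Tppp3, a tubulin-binding protein, was the exception to the list, at 0.86, and is named because it was the exception.

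**Figure D2:**
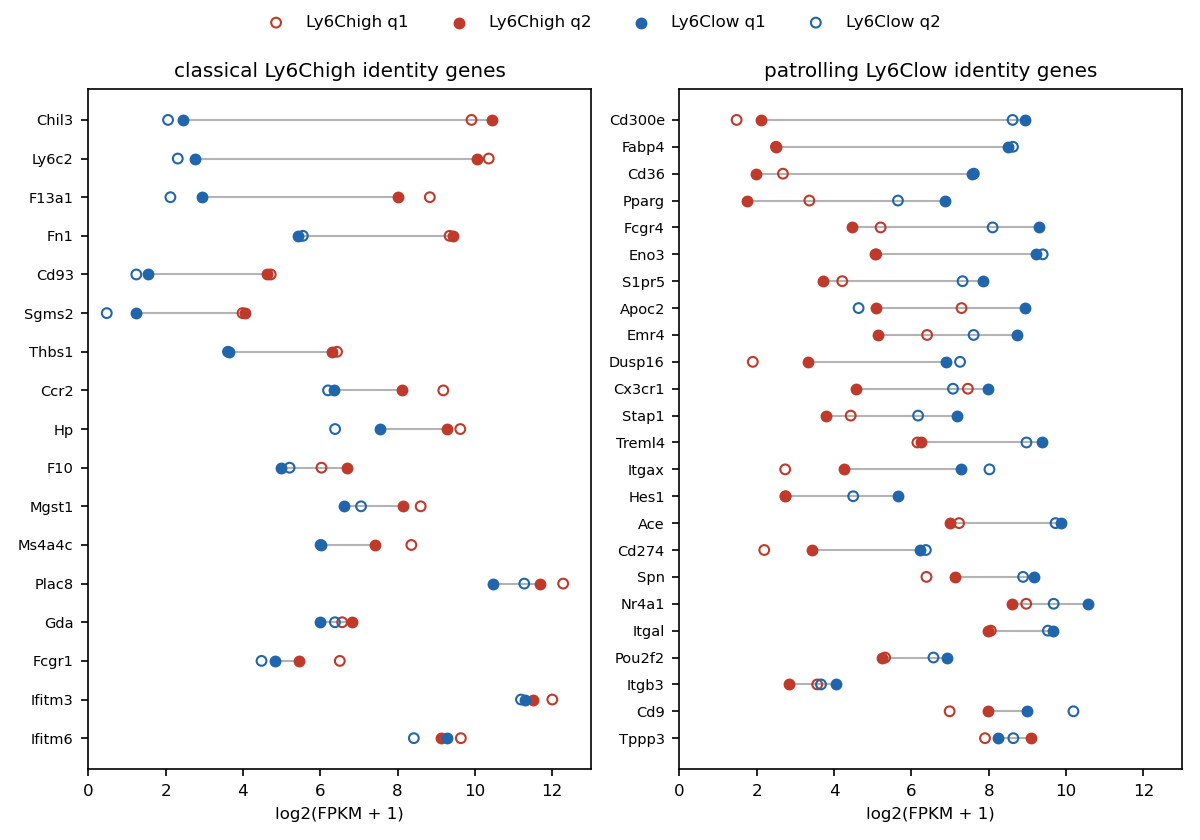
Levels of 17 of the 18 classical (left) and all 24 patrolling (right) genes compared, as log2(FPKM + 1), with 1 point per condition; the grey line joins Ly6Chigh q2 and Ly6Clow q1. In the right panel the filled red points lie left of the filled blue points for every gene but Tppp3, and for Cx3cr1, Apoc2 and Tppp3 the open points lie in the opposite order to the filled ones.

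Of 22 transcription factors of monocyte fate compared, 2 were at least 2-fold higher in Ly6Chigh q2 and 7 lower, where 6.78% and 6.61% of all genes compared were, and the median was -0.14. The 4 at least 4-fold lower were Hes1, a target of Notch signalling, Id3, an inhibitor of basic helix-loop-helix factors, Tcf7l2, a factor of the Wnt pathway, and Bcl6, a transcriptional repressor. Hes1 stood at 5.70, 5.68, 49.2 and 21.5 FPKM, a difference of -2.91, and Tcf7l2 at 2.03, 3.11, 24.0 and 26.8 FPKM, a difference of -2.60. Spi1, which encodes PU.1, the master factor of the myeloid line, stood at 384, 519, 600 and 590 FPKM, a difference of -0.21.

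To show which of the 4-fold genes were ordered by subset and which by condition, each gene was set beside its difference in Ly6Chigh q1 minus Ly6Clow q2, a pairing that shares no condition with the comparison. This grouping was chosen after the values were seen. Of the 148 higher genes, 76 were also at least 2-fold higher there, 48 lay within 2-fold and 24 were at least 2-fold lower. Of the 185 lower genes, 121 were also at least 2-fold lower there, 54 lay within 2-fold and 10 were at least 2-fold higher. Over the genes that qualify in that pairing, 5.37% were at least 2-fold higher and 5.67% lower.

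The 24 higher genes that turned round had a median difference of 2.73 in the comparison and -2.29 in the other pairing. In both subsets the authors' deposited tables called 21 of the 24 higher in q2 (7.07% of all genes tested in Ly6Chigh and 14.2% in Ly6Clow). A gene can turn round this way only if it rises strongly from q1 to q2, taken over both subsets. These calls were therefore largely fixed by the grouping. The small RNA rows Mir6990 and Mir8098 and the gene Atp6v0c are among the 24 but were called in neither subset. Atp6v0c, named for that after its values were seen, stood at 20.3, 184, 44.8 and 46.2 FPKM. The 24 also include Htra3, Fabp5, Upp1, Cish and Uck2 and the costimulatory ligand Cd80, which stood at 5.36, 15.2, 2.55 and 19.0 FPKM. Clec4n, the fungal receptor dectin-2, stood at 7.11, 31.9, 4.999 and 64.9 FPKM. In both genes each q2 value lay above each q1 value, and for both the authors' deposited tables gave q = 0.000859 in Ly6Chigh and q = 0.000418 in Ly6Clow. Of the 10 lower genes that turned round, 7 are rows of small RNAs or the row Rps27,Rps27rt, which joins a ribosomal protein gene with a near-identical copy, and the others are Apoe, Apoc2 and Tmem176a. Apoc2, a cofactor of lipoprotein lipase, stood at 156, 33.2, 494 and 23.8 FPKM, with differences of -3.85 and 2.66. Tmem176a, a membrane protein, is named as the last of these 3 and had -2.01 and 1.86.

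**Figure D3:**
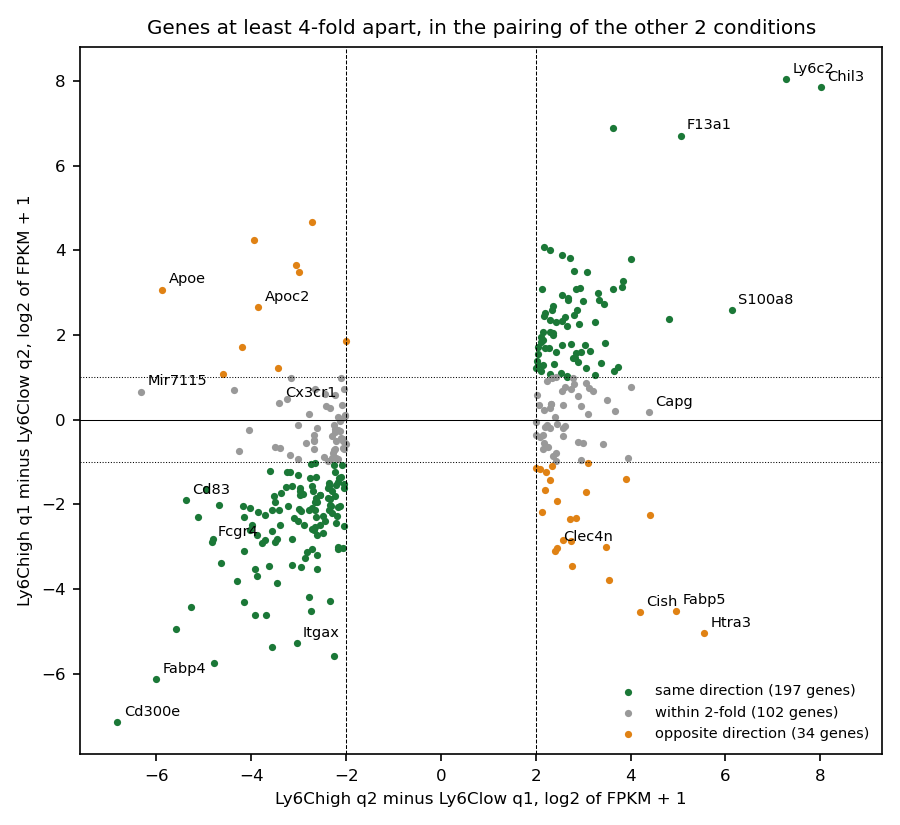
Each point is 1 of the 333 genes at least 4-fold apart, with Ly6Chigh q2 minus Ly6Clow q1 on the x axis and Ly6Chigh q1 minus Ly6Clow q2 on the y axis, both in log2 of FPKM + 1. Green points keep their direction by at least 2-fold, grey points lie within 2-fold and orange points, such as Fabp5, Htra3 and Apoe, have the opposite direction by at least 2-fold.

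Read the other way, 298 genes were at least 4-fold apart between Ly6Chigh q1 and Ly6Clow q2 (1.23% of genes higher in Ly6Chigh and 1.58% lower), and 122 of them (40.9%) were also at least 4-fold apart in the same direction between Ly6Chigh q2 and Ly6Clow q1. Of the 130 genes higher in Ly6Chigh, 43 were still 4-fold apart, 25 were 2-fold to 4-fold apart, 50 lay within 2-fold and 12 were at least 2-fold the other way. Of the 168 genes higher in Ly6Clow, the counts were 79, 33, 33 and 23. The median difference was 2.59 in size for the 298 genes in the pairing that chose them and 1.62 in the comparison. The genes were selected for being far apart in the first pairing, so the smaller median in the second is no measure of how far the subsets came together.

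The 10 genes of the 298 with a difference nearest 0 included the immediate early factor Fos and the antiviral GTPase Mx1. Fos stood at 1168, 323, 310 and 37.1 FPKM, differences of 0.06 in the comparison and 4.94 in the other pairing. Mx1 stood at 103, 34.9, 35.6 and 21.3 FPKM, with -0.03 and 2.22. In both the Ly6Chigh q2 value was close to the Ly6Clow q1 value while Ly6Chigh q1 was the highest of the 4 conditions. On the Ly6Clow side, Abcg3, a transporter gene, and Cbfa2t3, a transcriptional corepressor, stood at 49.2 and 71.5 FPKM in Ly6Chigh q2 against 47.3 and 69.1 FPKM in Ly6Clow q1.

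Of 26 interferon-stimulated genes compared, 23 lay within 2-fold, a share close to the 86.6% of all genes compared. Of the others, 2 were at least 2-fold higher in Ly6Chigh q2 and 1 lower, 0 were 4-fold apart, and the median was 0.21, against 1.79 in Ly6Chigh q1 minus Ly6Clow q2. Within Ly6Chigh the authors' deposited table called 24 of the 26 lower in q2 at q under 0.05 (7.54% of all genes tested there were called lower and 7.07% higher). Within Ly6Clow it called 14 lower and 1 higher (12.2% and 14.2% of all genes). Zbp1, a sensor of viral nucleic acid, and Bst2 (tetherin) had the highest levels, with differences of -0.00 and 0.91. The 3 genes past 2-fold, named for that after their values were seen, were Isg15, a ubiquitin-like modifier, at 1.86, Cxcl10, a chemokine for T cells, at 1.25 and Ifit3, an antiviral protein, at -1.27. Ifit3 stood at 54.9, 3.82, 10.6 and 4.52 FPKM and Cxcl10 at 25.8, 3.02, 0.694 and 0.567 FPKM. For both, Ly6Chigh q1 was the highest value by more than 4-fold.

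The promoter of Ifit3 is shown as an example from that list, at chr19:34583279-34583578, plus strand, in GRCm38.p6.
Ifit3: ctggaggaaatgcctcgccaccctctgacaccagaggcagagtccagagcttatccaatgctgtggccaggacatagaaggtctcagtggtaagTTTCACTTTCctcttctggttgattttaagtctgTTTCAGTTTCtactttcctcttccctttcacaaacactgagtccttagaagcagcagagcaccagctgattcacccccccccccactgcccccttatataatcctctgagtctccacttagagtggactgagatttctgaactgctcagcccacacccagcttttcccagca
The capitals mark 2 matches to the interferon-stimulated response element, read on the minus strand. Of the 19 promoters found for the list, 12 (63.2%) held this motif, against 3.28% of the 8069 promoters found for all genes compared. The genes were listed for their response to interferon, so a high share was largely fixed in advance. No test of it was made. The NR4A site was in 0 of the 17 promoters found for the patrolling list, which says only that these letters are not in that window.

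Genes of antigen presentation were lower in Ly6Chigh q2. Of 14 compared, 8 were at least 2-fold lower, 6 of them at least 4-fold, and 1, Cd80, was higher, with a median of -1.46. Among all genes, 6.61% were at least 2-fold lower, 1.74% 4-fold lower and 6.78% 2-fold higher. The class II chains H2-Aa, H2-Ab1 and H2-Eb1 had differences of -3.51, -3.50 and -4.02, and the invariant chain Cd74 had -2.70. H2-Aa stood at 415, 111, 1277 and 1445 FPKM and Cd74 at 1626, 584, 3802 and 5223 FPKM. H2-Oa and H2-Ob, which restrain peptide loading in B cells, were the other 2. Ctss, the protease that trims the invariant chain, had -0.32. Ly6Chigh q2 was the lowest of the 4 conditions for H2-Aa and Cd74.

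Markers of B cells and dendritic cells were also mostly lower in Ly6Chigh q2. All 9 B cell markers were lower in Ly6Chigh q2, 7 of 9 at least 2-fold (6.61% of all genes). Their summed level was 95.8, 79.0, 217 and 298 FPKM, with none at 0. Of the 7 dendritic cell markers compared, 5 were at least 2-fold lower, and the summed level of the 9 matched was 184, 69.2, 234 and 337 FPKM, with none at 0. Cd79a and Cd79b, the signalling chains of the B cell receptor, had differences of -1.42 and -1.26. The cytokine receptor Flt3, a dendritic cell marker, had -3.16. The part of these cells in the class II result was not tested.

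Of the 19 S100 and granule genes listed, 9 were compared, and 7 were at least 4-fold higher in Ly6Chigh q2 (1.39% of all genes). These 7 were S100 genes and Saa3. None of the 9 was 2-fold lower, and the median was 2.99, against 0.84 in the other pairing. The authors' deposited tables called 5 of the 9 higher in q2 within Ly6Chigh and 7 within Ly6Clow, and 1 lower in each. Of all genes tested, 7.07% and 14.2% were called higher and 7.54% and 12.2% lower. S100a4, S100a6, S100a10 and S100a11 are small calcium-binding proteins and had differences of 2.81, 3.11, 3.21 and 2.33. S100a10 stood at 571, 1481, 159 and 357 FPKM. S100a9, the partner of S100a8, and the acute phase gene Saa3 had 3.64 and 2.99. Saa3 stood at 71.8, 68.3, 7.71 and 105 FPKM, so its highest value was in Ly6Clow q2. The lysozyme genes Lyz1 and Lyz2, the only granule proteins compared, had 0.71 and 0.77, and Lyz2 had the highest level in the list. Of 5 neutrophil markers compared, 3 were at least 2-fold higher (6.78% of all genes), 2 of which, S100a8 and S100a9, are in both lists. The other 2 lay within 2-fold and were lower in Ly6Chigh q2, at -0.67 and at -0.46 for Retnlg. The summed level of the 10 neutrophil markers matched was 282, 604, 155 and 105 FPKM. S100a8 alone made up 422 of the 604 FPKM in Ly6Chigh q2. Ngp, a neutrophil granule gene, was at 0 in Ly6Clow q1. The part of neutrophils in the S100 result was not tested.

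Lipid genes split in both directions, with 5 of 22 at least 2-fold higher and 9 lower (6.78% and 6.61% of all genes). Their median was -0.66. The 6 at least 4-fold lower were Fabp4, Apoe, Cd36, Pparg, Apoc2 and Mylip, a ubiquitin ligase for the LDL receptor, at -2.24. Fabp5 was the 1 at least 4-fold higher. Fabp4 and Fabp5 code for related carriers, and their values were ordered by subset for Fabp4 and by condition for Fabp5. Sqle and Hmgcs1, enzymes of cholesterol synthesis named after their values were seen, had 1.82 and 1.07, with -2.51 and -1.52 in the other pairing.

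Adhesion genes had 4 of 22 members at least 2-fold higher and 8 lower (6.78% and 6.61% of all genes). Their median was -0.64. Ccr1, a receptor for inflammatory chemokines, stood at 13.8, 31.1, 2.62 and 3.81 FPKM and was at least 4-fold higher, while S1pr5, Cx3cr1, Cxcr4 and Itgax were 4-fold lower. Cxcr4, which holds cells in the marrow, stood at 60.1, 26.1, 245 and 107 FPKM. Of 25 Fc, phagocytic and pattern receptors, 5 were at least 2-fold higher and 7 lower, with a median of -0.23. Msr1, a scavenger receptor, stood at 80.6, 85.0, 12.4 and 10.1 FPKM, the reverse of Cd36. Cd163, the haemoglobin scavenger receptor, had -2.43.

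Among 14 cytokines and chemokines, 2 were at least 2-fold higher and 6 lower (6.78% and 6.61% of all genes), with a median of -0.72. Il1b, an inflammatory cytokine, stood at 25.7, 6.25, 75.3 and 41.1 FPKM, a difference of -3.40. Ccl2, the ligand of CCR2, stood at 34.6, 18.8, 2.38 and 1.42 FPKM, a difference of 2.55. Ccl6 and Ccl9, the chemokines of the highest level, had 0.59 and 0.73. Of 10 regulatory and repair genes, 4 were at least 2-fold higher and 3 lower. Tgfbi, a matrix protein induced by TGF-beta, and Cd274, the checkpoint ligand PD-L1, had 2.55 and -2.79.

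NOD2 and NF-kB pathway genes leaned lower in Ly6Chigh q2, with a median of -0.53. At least 2-fold higher were 0 of 22, and 6 were lower (6.78% and 6.61% of all genes). Nfkbiz, an atypical inhibitor of NF-kB, stood at 56.6, 24.8, 120 and 37.7 FPKM, a difference of -2.23. Nfkbia, the classical inhibitor, had -1.98 and Card9, an adaptor, 0.20. In the other pairing the median of the list was 0.11. Of 16 immediate early and heat shock genes, 2 were at least 2-fold higher and 4 lower, and Ier3, a stress-response gene, was 4-fold higher at 2.61. Zfp36, which destabilises cytokine mRNA, and the phosphatase Dusp1 had -1.34 and -1.66.

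Of 17 apoptosis genes, 1 was at least 2-fold higher and 5 lower, where 6.78% and 6.61% of all genes compared were. Bcl2a1b, an A1 survival gene with near-identical copies whose reads may be split, had -2.25. The growth factor receptor gene Csf1r, on which Ly6Clow monocytes depend, had -1.34. Of 15 glycolysis genes, 3 were at least 2-fold higher and 0 lower, with a median of 0.51, and Gapdh and Pkm had 1.19 and 1.02. The glycolysis median was -0.39 in the other pairing and 0.17 between the q1 conditions. The authors' deposited tables called 9 of the 15 higher in q2 within Ly6Chigh and 10 within Ly6Clow (7.07% and 14.2% of all genes). Called lower in q2 were 1 and 0 (7.54% and 12.2% of all genes). Of 19 cell cycle genes, 3 were at least 2-fold higher and 1 lower, with a median of -0.08 and Pcna at -0.09. Of 14 housekeeping genes, 0 were at least 2-fold higher and 1, B2m, was lower at -1.16, with a median of -0.01.

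Of the remaining marker lists, NK cells had 1 of 5 compared at least 2-fold lower (Gzma, a granule protease, at -2.33) and T cells 0 of 2 in either direction. Erythroid and platelet markers had 3 of 7 lower and none higher. Tissue macrophage markers had 1 of 6 higher and 3 lower. No eosinophil or basophil marker qualified. At 2-fold, 6.78% of all genes compared were higher and 6.61% lower.

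**Figure D4:**
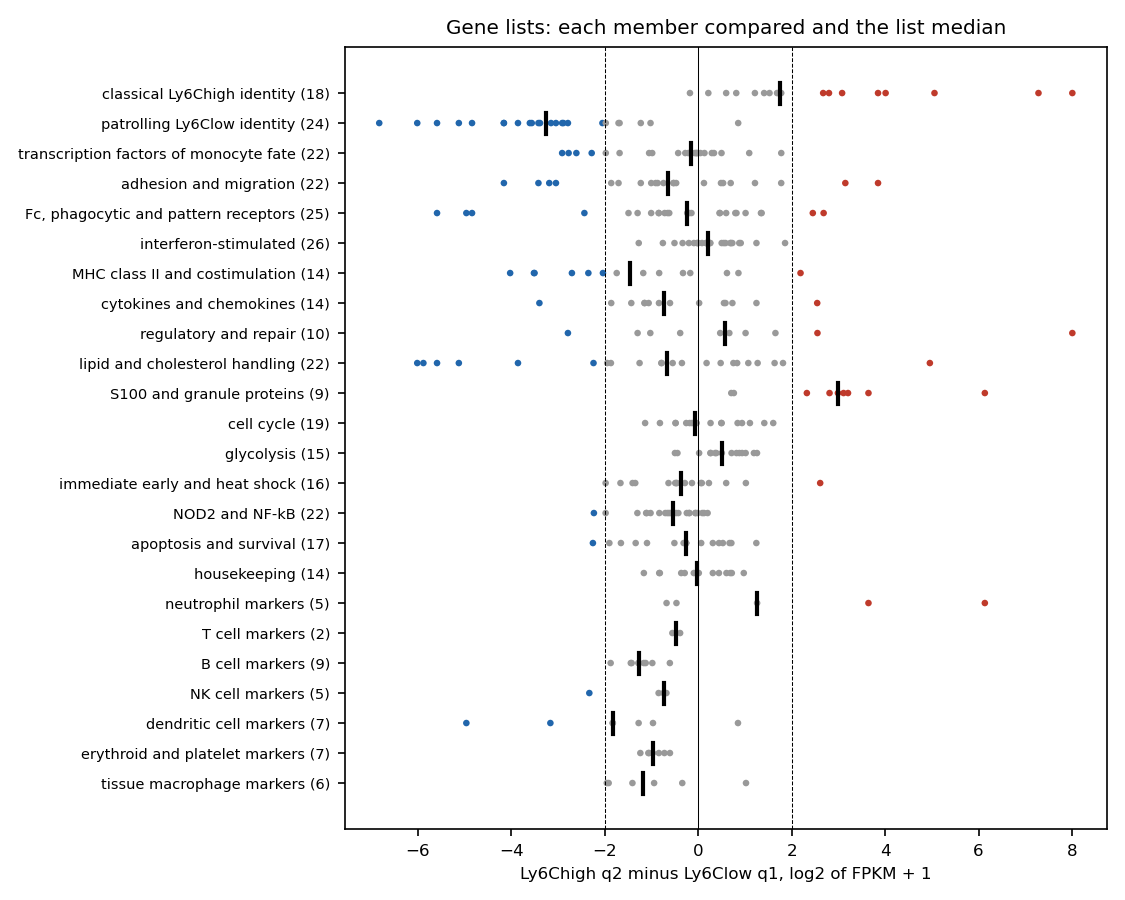
Each point is a compared member of a gene list, placed by Ly6Chigh q2 minus Ly6Clow q1 in log2 of FPKM + 1, and each black bar is the list's median; the number of members compared follows the name and dashed lines mark 4-fold. The patrolling list has its median at -3.26 and the S100 and granule list at 2.99, while the interferon-stimulated list lies within 4-fold.

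Over the same 10617 genes the comparison showed the widest spread of the 6 possible pairs of conditions. Its median absolute difference was 0.38, against 0.30 for Ly6Chigh q1 and Ly6Clow q1, 0.29 for Ly6Chigh q2 and Ly6Clow q2 and 0.29 for Ly6Chigh q1 and Ly6Clow q2. Within a subset it was 0.23 for Ly6Chigh and 0.18 for Ly6Clow. Genes at least 4-fold apart numbered 124 higher and 148 lower between the subsets in q1, and 74 higher and 143 lower in q2. These pairs share conditions with the comparison, and the gene selection used its levels, so the values are set side by side without a test.

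**Figure D5:**
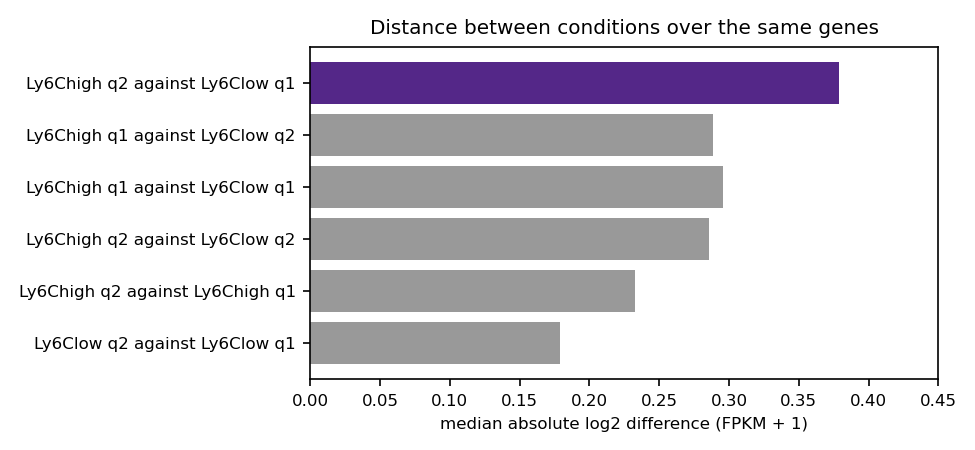
Bars give the median absolute difference in log2 of FPKM + 1 over 10617 genes for each pair of conditions, from 0. The comparison is in purple at 0.38 and the pair within Ly6Clow is the shortest at 0.18.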

How the data were processed

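Total RNA was sequenced from 12 samples in 4 groups of 3. Trimmomatic 0.33, TopHat2 2.0.14, Bowtie2 2.2.5, Cufflinks 2.21, Cuffdiff 2.21 and the build mm10 are named per the submitters' processing notes, without settings. The authors deposited 1 table per subset with 23996 gene rows, which holds FPKM per condition, q1 and q2, and none per sample. Within a subset, the authors tested q2 against q1 and deposited a p-value and a q-value, the smallest q being 0.000859 for Ly6Chigh and 0.000418 for Ly6Clow. The table's own name ties it to a subset. The deposited log2 column was not used because it holds cells that are not numbers. Depth per sample is unknown.

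The tables were joined on gene and locus. Differences are log2 of (Ly6Chigh q2 FPKM + 1)/(Ly6Clow q1 FPKM + 1), for genes with status OK in both and at least 1 FPKM in either. Genes at least 4-fold apart were counted, with 2-fold as the lower mark. No test joins the tables, and none was made. Authors' calls have q under 0.05 in genes of status OK.

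The members and lists were chosen with earlier results of these data known. Of 388 listed symbols, 384 had a row of their own. The genes named are the 15 highest and 15 lowest, the 4 markers, from each list the members past 4-fold and the 2 highest in level, and the subset genes nearest and farthest; 1 of these is not reported here, and others are named as chosen after their values were seen. The lists are those of classical and patrolling genes, transcription factors, adhesion, receptors, interferon-stimulated genes, antigen presentation, cytokines, regulatory genes, lipids, S100 and granule proteins, cell cycle, glycolysis, immediate early genes, NOD2 and NF-kB, apoptosis, housekeeping and 8 lists of other cells. RefSeq matched 10013 of the genes by name; promoters are RefSeq's for GRCm38.p6. Other pseudocounts, thresholds, scalings and pairings were tried. The calculation was made in Python 3.11.15 with pandas 2.3.3 and numpy 2.4.6. It was run on simulated data with exact 8-fold changes, no noise and no low levels, which checks the arithmetic only.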

Additional observations from a re-analysis of the deposited data

How the results depend on the processing

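With a pseudocount of 0.1 the genes at least 4-fold apart numbered 241 higher and 285 lower, with one of 10 they numbered 42 and 71, and the median absolute difference then was 0.19. With 2-fold or 8-fold for a call the counts were 720 and 702 or 42 and 72. Of the genes 4-fold apart between Ly6Chigh q1 and Ly6Clow q2, 34 of 84 were still apart at a pseudocount of 10, and at 2-fold 470 of 1170 and at 8-fold 27 of 93. In Ly6Chigh q2 against Ly6Clow q2, 74 genes were 4-fold higher. In the authors' deposited Ly6Chigh table, q under 0.01 left 485 genes higher and 571 lower in q2. The changes with the pseudocount, the fold and the q threshold follow from those settings; the smaller count between the q2 conditions compares another pair, and its cause was not tested. Protein-coding genes alone, a filter of 10 FPKM, and medians set to 0 over all or housekeeping genes, the first and last added after seeing the data, moved each count by less than 1.5 times.

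Direction turned between Ly6Chigh q1 and Ly6Clow q2 for Htra3 (-5.05), Fabp5 (-4.51), Upp1 (-2.26), Cish (-4.55), Gm14005 (-0.90), Uck2 (-1.40) and Apoe (3.07). It turned between Ly6Chigh q2 and Ly6Clow q2 for Fabp5 (-0.61) and Cish (-0.48). Mir7115 and Snora78, lower where Ly6Chigh q2 is listed at 0, had 0.66 and 1.07 between Ly6Chigh q1 and Ly6Clow q2, and Mir7115 had 0.69 between the q1 conditions. The cause was not tested. Of the other values for single genes, 341 kept direction and size and 71 moved in size. No paired analysis was possible because the tables hold 1 value per condition, and no replicate could be left out for the same reason. Without counts, the depth and the error of each value are unknown.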
